A study of Rattus norvegicus with 18 samples.

Results

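The levels of 8 genes of neurotrophin and GDNF family signalling (Bdnf, Ntf3, Ntrk2, Ntrk3, Ngfr, Sort1, Ret and Gfra1) were followed in the prefrontal cortex (PFC) of rat pups at postnatal day 14 (P14). The genes were taken by symbol from a list, and all 8 were found among the 32623 genes of each table. The rule itself uses no measured level, but the list was drawn up with earlier results of these data known. RNA-seq libraries came from 18 Sprague Dawley pups, 6 in each of 3 groups. Dams of the SAL group received saline by oral gavage. Dams of the PNO group received oxycodone (oxy) at 15 mg/kg/day only after giving birth and up to weaning, so that the pups met the drug in the milk. Dams of the IUO group started at 10 mg/kg/day for 5 days, rose by 0.5 mg/kg/day for 10 days to 15 mg/kg/day, were then mated and stayed on the drug until weaning, so that these pups were exposed before and after birth. The pups themselves were not dosed, and the dam and sex of each pup are not given in the labels, so the p-values below measure the spread between these pups, some of which may be littermates. The comparisons ask whether either exposure, or the exposure in utero beyond that in the milk, moved these transcripts.

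Neurotrophins are small secreted proteins that keep neurons alive in development and tune their synapses later. BDNF, encoded by Bdnf, binds the receptor tyrosine kinase TrkB (Ntrk2), and NT-3, encoded by Ntf3, binds TrkC (Ntrk3). All neurotrophins also bind the p75 receptor (Ngfr), which joins with sortilin (Sort1) to bind the uncleaved proneurotrophins. Sortilin sorts cargo, BDNF among it, into secretory and lysosomal routes. Ret is the receptor tyrosine kinase of the GDNF family, and it responds to GDNF together with GFRα1, a co-receptor anchored to the membrane and encoded by Gfra1. In the cortex Bdnf transcription follows neuronal activity, TrkB is made by neurons and, in a form without the kinase, by astrocytes, and p75 in the adult forebrain is best known from the cholinergic neurons of the basal forebrain.

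All 8 genes passed the filter on low counts and were tested. Their expected counts were whole numbers, to within 0.005, in 144 of 144 values. Expected counts summed to between 18381819 and 26084780 per pup, with a median of 22726306, and no 2 pups of a group among 45 pairs had identical files. The neuron markers, 8 of 8 found, summed to between 4706 and 7285 CPM (counts divided by the effective library size) in the 18 pups. No matched marker of any cell type list was at 0 in every pup, and Pecam1, Col1a2 and Hba-a1 matched no symbol. Marker levels of other cell types differed from pup to pup and, for some lists, in their group medians. Markers of striatal medium spiny neurons (9 genes) summed to 170.2 to 1606 CPM in SAL, 241 to 1361 in PNO and 417.3 to 1949 in IUO. Myelin markers (10 genes) summed to 1744 to 9391, 2958 to 15080 and 2225 to 5685 CPM in the same order, and choroid plexus markers (7 genes) to 6.37 to 547, 6.66 to 978 and 4.26 to 257 CPM. The group medians of the sums, in that order, were 319, 333 and 675 CPM for striatal and 6398, 10430 and 3031 CPM for myelin markers. They were 27.29, 75.15 and 28.21 CPM for choroid plexus and 910, 1063 and 1620 CPM for blood markers (4 genes). Differences of these medians between groups were not tested. In bulk tissue, fewer cells of a type and less RNA per cell cannot be told apart. The library kit does not mark the strand, so reads of a gene on the opposite strand could not be separated from those of the gene named.

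Levels of different genes were compared in TPM, which takes transcript length into account. Sortilin and TrkB were the most abundant of the 8. Sort1 averaged 83.9 ± 20.7 TPM and Ntrk2 81.0 ± 25.0 TPM (SD, n = 18 pups, as are the next values), and Sort1 was the higher of the pair in 11 of 18 pups, so this pair did not separate. Ntrk3 followed at 22.8 ± 5.27 TPM, below Ntrk2 in 18 of 18 pups with no overlap of the ranges. Gfra1 stood at 11.9 ± 4.16 TPM, below Ntrk3 in 18 of 18 pups, although the ranges of the pair overlapped. The ligands came next. Bdnf, at 6.94 ± 1.52 TPM, was below Gfra1 in 16 of 18 pups, and Ntf3, at 4.23 ± 1.86 TPM, was below Bdnf in 13 of 18. Ngfr, at 2.55 ± 2.28 TPM, and Ret, at 2.44 ± 1.49 TPM, were lowest. Ngfr was above Ret in only 10 of 18 pups.

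**Figure D1:**
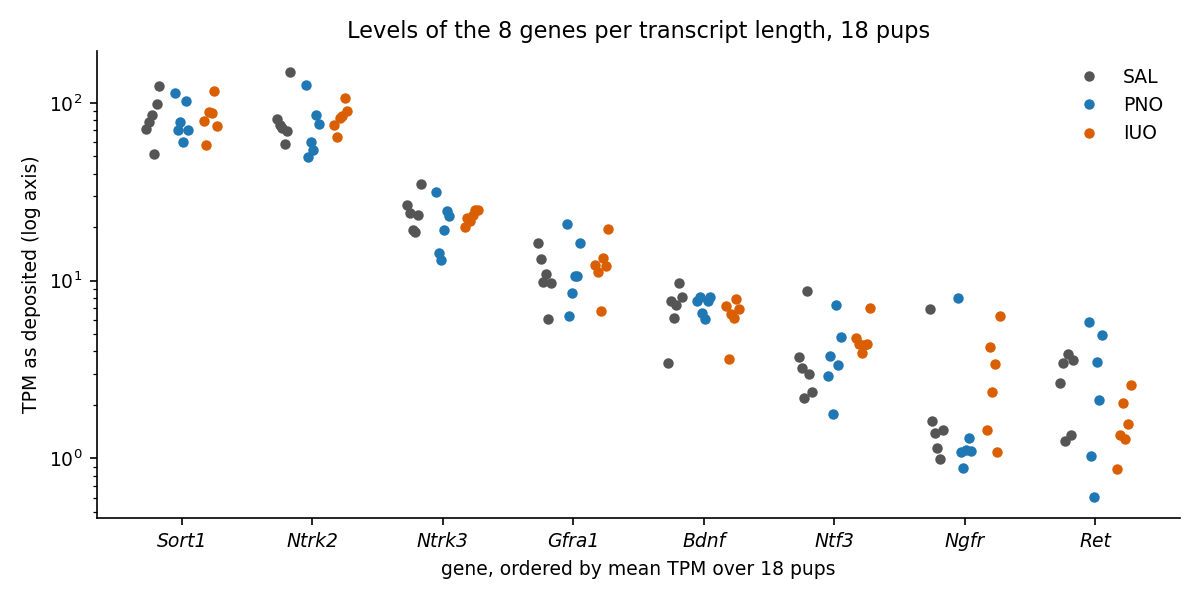
TPM as deposited (vertical log axis) of the 8 genes, ordered by their mean over 18 pups; each point is a pup, shaded by group and offset side by side (SAL left, PNO middle, IUO right). Sort1 and Ntrk2 share the top of the range, Ntrk3 lies below Ntrk2 in 18 of 18 pups, and Ret and Ngfr have the widest vertical spreads.

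The positions below are those of RefSeq on the GRCr8 rat assembly, matched by symbol for 8 of 8 genes; the assembly behind the deposited tables is not given in the sources used here. Bdnf (ENSRNOG00000047466) lies at chr3:116619633-116670212 and had 8 transcripts in the tables, Ntf3 (ENSRNOG00000019716) lies at chr4:160601161-160670623 with 3, Ntrk2 (ENSRNOG00000018839) at chr17:5560558-5875899 with 3 and Ntrk3 (ENSRNOG00000018674) at chr1:141526192-141913575 with 4. Ngfr (ENSRNOG00000005392) at chr10:81012077-81030305, Gfra1 (ENSRNOG00000017438) at chr1:267325297-267557037, Ret (ENSRNOG00000014751) at chr4:152998344-153040556 and Sort1 (ENSRNOG00000031814) at chr2:198609466-198690481 each had 1. RefSeq promoter windows of 300 bases, 250 before and 50 after a start site, were matched for 5 of the 8 genes, 12 windows in all. Bdnf had 6 of these, since the gene is transcribed from several starts, and the gene-level count used here adds up what comes from each. The letters TGACG, the core of the cAMP response element, were searched on both strands (CGTCA on the other). They stood in 1 of the 12 windows, window 4 of Bdnf, at position -35 from the start, and in 21.2% of all 33469 windows. The palindrome TGACGTCA, which contains TGACG on either strand, was in 0 of the 12 and in 1.83% of all windows. Windows 1 and 4 of Bdnf are shown for this contrast, on the plus strand at chr3:116619383-116619682 and chr3:116637608-116637907, with the matched letters in capitals.
Bdnf window 1: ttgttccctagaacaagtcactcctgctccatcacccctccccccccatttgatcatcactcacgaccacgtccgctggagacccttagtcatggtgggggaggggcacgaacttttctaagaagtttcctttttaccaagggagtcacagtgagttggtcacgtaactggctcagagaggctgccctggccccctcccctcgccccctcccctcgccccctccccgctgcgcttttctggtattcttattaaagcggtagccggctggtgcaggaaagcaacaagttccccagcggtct
Bdnf window 4: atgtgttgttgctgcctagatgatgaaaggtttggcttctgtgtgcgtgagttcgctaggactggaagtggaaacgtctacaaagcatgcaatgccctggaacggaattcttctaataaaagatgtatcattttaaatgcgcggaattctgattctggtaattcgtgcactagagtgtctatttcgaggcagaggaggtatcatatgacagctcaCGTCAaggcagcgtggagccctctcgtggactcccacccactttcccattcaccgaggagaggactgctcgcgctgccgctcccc
A match of letters is a description and not a binding site.

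No member was called in any comparison. In edgeR's quasi-likelihood test over all 15703 genes, 0 of 8 members had an adjusted p under 0.05 for PNO versus SAL, where 0.0% of all genes were called, 0 of 8 for IUO versus SAL, where 0.0% were called, and 0 of 8 for IUO versus PNO, where 0.0637% (10 genes) were called. At an unadjusted p under 0.05 the members numbered 0 of 8 in each comparison as well, against 4.5%, 6.88% and 15.3% of all genes tested. DESeq2 and limma-voom also called 0 of 8 in each comparison at an adjusted p under 0.05; at an unadjusted p under 0.05 each counted 1 member between IUO and PNO, Ret with DESeq2, where 16.4% of all genes were under it, and Ngfr with limma-voom, where 34.0% were. A test for any difference among the 3 groups called 0 of 8 (0 at an unadjusted p under 0.05), with the smallest p for Ret (adjusted p = 0.613), against 0.00637% of all genes called and 10.5% at an unadjusted p under 0.05. For all 8 members the ranges of the groups overlapped in each comparison; across all genes, groups did not overlap in 0.108%, 0.745% and 1.66%. Positive log2 fold changes were fitted for 6, 4 and 4 of the 8 members, and for 50.8%, 48.0% and 49.9% of all genes. The median log2 fold change of the 8 was 0.05 for PNO versus SAL, 0.0011 for IUO versus SAL and 0.03 for IUO versus PNO, and that of all genes 0.0033, -0.00735 and -0.00053.

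**Figure D2:**
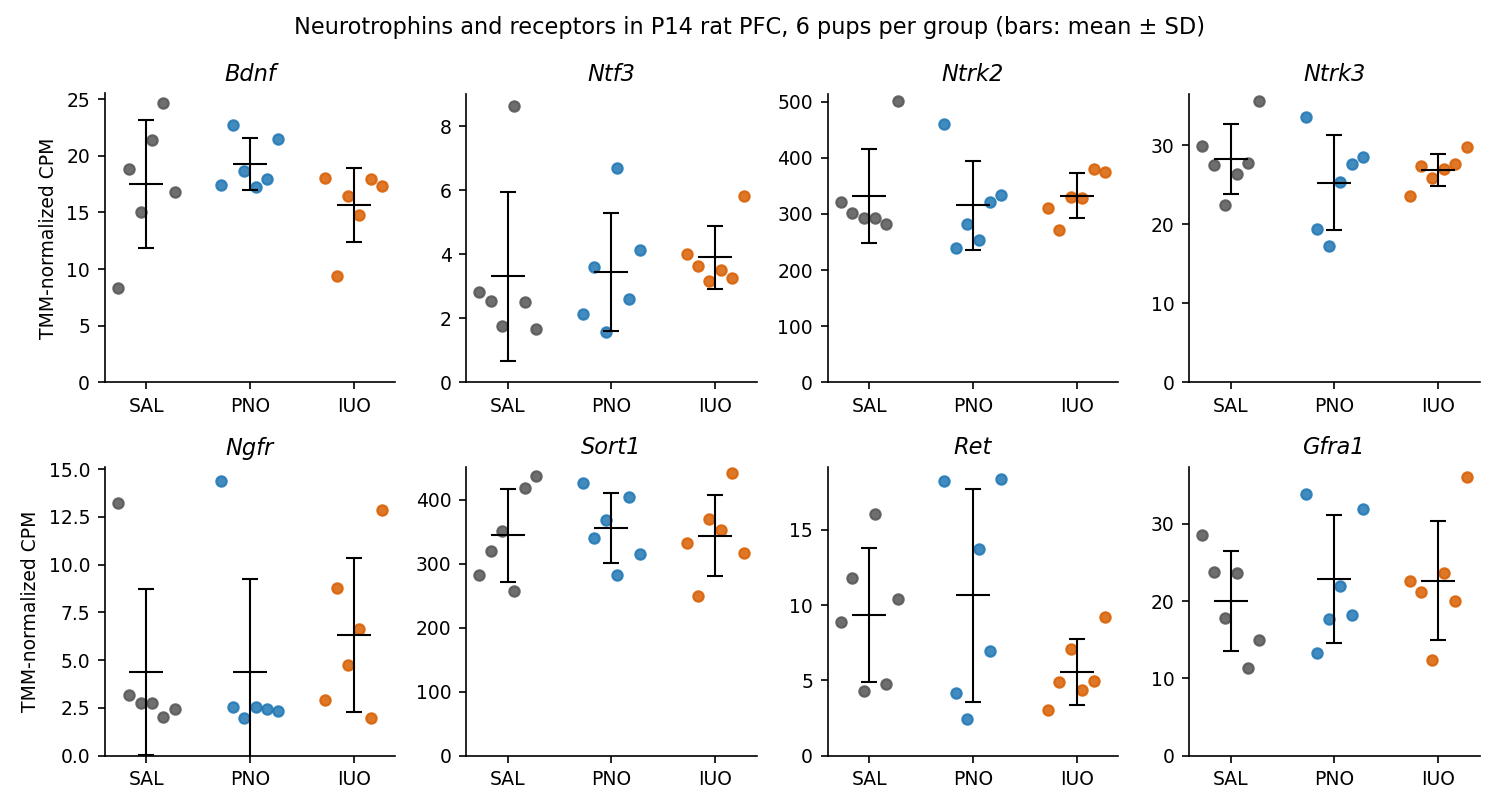
TMM-normalized CPM (vertical axes, from 0) of each gene in each pup by group; points are pups in the order of their replicate number, and black bars give mean ± SD of 6 pups, cut at 0 for Ngfr. The groups overlap in all 8 panels, and single pups stand high for Ngfr (SAL1 13.2, PNO1 14.4), Ntf3 (SAL4 8.63) and Ntrk2 (SAL6 501).

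Of the ligands, Bdnf was highest in PNO and lowest in IUO by the mean, within the spread of the pups. Its level in SAL ran from 8.34 CPM to 24.7 CPM with a median of 17.8, in PNO from 17.2 to 22.7 with a median of 18.3, and in IUO from 9.40 to 18.0 with a median of 16.9. The 6 PNO pups were close together, whereas SAL held both the lowest pup of all (SAL1) and the highest (SAL5). The fitted log2 fold change was 0.14 for PNO versus SAL (SE 0.20, 95% interval -0.28 to 0.56, adjusted p = 0.921), -0.16 for IUO versus SAL (SE 0.20, interval -0.58 to 0.26, adjusted p = 0.978) and -0.30 for IUO versus PNO (SE 0.20, interval -0.72 to 0.12, adjusted p = 0.494). None of the 6 IUO pups was above the PNO median. Without SAL1 the first of these differences fell to -0.0085.

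Ntf3, the TrkC ligand, was a low transcript, at 1.65 to 8.63 CPM in SAL (median 2.53), 1.57 to 6.70 CPM in PNO (median 3.10) and 3.16 to 5.83 CPM in IUO (median 3.57). The lowest IUO pup was above the SAL and the PNO medians, so that 6 of 6 IUO pups lay above either median, but SAL4 and PNO4 were higher than every IUO pup. The log2 fold change was 0.06 for PNO versus SAL (SE 0.39, adjusted p = 0.982), 0.23 for IUO versus SAL (SE 0.39, interval -0.58 to 1.05, adjusted p = 0.995) and 0.18 for IUO versus PNO (SE 0.39, adjusted p = 0.849). Single pups moved these values. Leaving out SAL4 gave 0.79 for IUO versus SAL (adjusted p = 0.753) and 0.61 for PNO versus SAL (adjusted p = 0.608), whereas leaving out PNO4 gave -0.24 for the latter and leaving out IUO6 gave 0.08 for the former.

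The Trk receptors were the steadiest transcripts together with Sort1. Ntrk2 (TrkB) lay between 282 and 501 CPM in SAL (median 297), between 240 and 460 CPM in PNO (median 301) and between 272 and 381 CPM in IUO (median 329). SAL6 and PNO1 stood above all other pups, and the remaining 16 overlapped. The log2 fold change was -0.07 for PNO versus SAL (SE 0.16, interval -0.41 to 0.26, adjusted p = 0.943), 0.0047 for IUO versus SAL (SE 0.16, interval -0.33 to 0.34, adjusted p = 0.9996) and 0.08 for IUO versus PNO (SE 0.16, interval -0.26 to 0.41, adjusted p = 0.835).

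Ntrk3 (TrkC) lay between 22.4 and 35.6 CPM in SAL (median 27.6), between 17.2 and 33.5 CPM in PNO (median 26.5) and between 23.5 and 29.7 CPM in IUO (median 27.1). The 2 lowest pups, PNO3 and PNO2, were in PNO. Its log2 fold change of -0.16 for PNO versus SAL (SE 0.14, interval -0.45 to 0.13) had the smallest p of the 8 in that comparison (adjusted p = 0.912). With 1 pup left out it ran from -0.26 without PNO1 (adjusted p = 0.536) to -0.07 without PNO3 (adjusted p = 0.996). The values against IUO were -0.07 for IUO versus SAL (adjusted p = 0.996) and 0.09 for IUO versus PNO (adjusted p = 0.786).

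Gene-level counts do not separate the kinase form of TrkB or TrkC from the truncated forms. The tables hold a mean transcript length per gene, weighted by the estimated abundance of each transcript, which moves when the mix of transcripts moves. For Ntrk2 this length was between 6357 and 6725 bases in the 18 pups, with group means of 6561 ± 123 in SAL, 6584 ± 103 in PNO and 6513 ± 102 in IUO (SD, n = 6). For Ntrk3 it was between 1915 and 2013 bases, with means of 1944 ± 24.5, 1935 ± 25.2 and 1958 ± 34.2. Two-sided exact permutation tests over the 924 divisions of 12 pups, run for Bdnf, Ntf3, Ntrk2 and Ntrk3 in each comparison (12 tests, chosen after the tables were opened), gave the smallest p for Ntrk3 between IUO and PNO (exact p = 0.223), and adjusted values from 0.896 up. No shift in the transcript mix was detectable by this measure. Which of the transcripts, if any, encode truncated forms was not identified, so it gives no answer on kinase against truncated forms.

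Sort1 lay between 257 and 437 CPM in SAL (median 336), between 283 and 426 CPM in PNO (median 354) and between 250 and 442 CPM in IUO (median 343). The 3 groups covered nearly the same range. Its log2 fold changes were 0.05 (SE 0.15, interval -0.26 to 0.35), -0.0025 (interval -0.31 to 0.30) and -0.05 (interval -0.36 to 0.26) for PNO versus SAL, IUO versus SAL and IUO versus PNO, with adjusted p of 0.962, 0.9996 and 0.887. Its highest pup had 1.77 times the level of its lowest, the narrowest range of the 8.

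Ngfr (p75) showed a few high pups over a low floor. In SAL it ran from 2.01 to 13.2 CPM (median 2.76), in PNO from 1.99 to 14.4 CPM (median 2.49) and in IUO from 1.97 to 12.8 CPM (median 5.69). In SAL and in PNO, 1 pup each (SAL1 and PNO1) stood far above the other 5, whose highest values were 3.18 and 2.54 CPM. In IUO the levels were graded, with IUO6 at 12.8, IUO2 at 8.76, IUO4 at 6.64, IUO3 at 4.74, IUO1 at 2.90 and IUO5 at 1.97 CPM. The log2 fold change was 0.0085 for PNO versus SAL (SE 0.60, interval -1.25 to 1.26, adjusted p = 0.998), 0.52 for IUO versus SAL (SE 0.60, interval -0.73 to 1.78, adjusted p = 0.974) and 0.51 for IUO versus PNO (SE 0.60, interval -0.74 to 1.77, adjusted p = 0.695). The IUO pups were above the SAL median in 5 of 6 and above the PNO median in 5 of 6. These values turned on the single high pups. Without PNO1 the difference between IUO and PNO was 1.40 (adjusted p = 0.159), without SAL1 that between IUO and SAL was 1.25 (adjusted p = 0.648), without IUO6 they were 0.18 (adjusted p = 0.906) and 0.19 (adjusted p = 0.999), and PNO versus SAL ran from -0.88 without PNO1 to 0.74 without SAL1.

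Ret and Gfra1 encode the GDNF receptor and its co-receptor, and Gdnf itself, at 0 to 9 counts per pup, was too low to test. Ret lay between 4.29 and 16.03 CPM in SAL (median 9.62), between 2.41 and 18.4 CPM in PNO (median 10.3) and between 3.06 and 9.20 CPM in IUO (median 4.90). No IUO pup was above the SAL or the PNO median, but 3 SAL pups (SAL1, SAL3 and SAL5) and 3 PNO pups (PNO2, PNO3 and PNO5) lay within or below the IUO range. The log2 fold change was 0.19 for PNO versus SAL (SE 0.44, interval -0.73 to 1.11, adjusted p = 0.947), -0.74 for IUO versus SAL (SE 0.44, interval -1.68 to 0.19, adjusted p = 0.837) and -0.93 for IUO versus PNO (SE 0.45, interval -1.87 to 0.0022, adjusted p = 0.328). The last was the smallest p of the 24 tests on members, in a comparison where 15.3% of all genes had an unadjusted p under 0.05. It ranged from -1.14 without PNO3 (adjusted p = 0.226) to -0.71 without PNO6 (adjusted p = 0.517). A score of cortical layer markers (8 genes) had r = -0.61 with Ret over the 18 pups (permutation p = 0.00711, adjusted p = 0.106). Its summed level was highest in IUO by the median (548 CPM against 439 in SAL and 386 in PNO). The striatal marker score had r = -0.59 with Ret (permutation p = 0.0118, adjusted p = 0.126). Its summed level was also highest in IUO by the median (675 CPM against 319 in SAL and 333 in PNO). The cause of these relations was not tested. With the striatal score as a covariate the log2 fold change of Ret was -0.62 for IUO versus PNO (SE 0.43, adjusted p = 0.434) and -0.47 for IUO versus SAL (SE 0.42, adjusted p = 0.825). With the myelin score they were -0.67 and -0.62, and with a score of cholinergic genes, Lhx8 and Chat among them, -1.04 (adjusted p = 0.249) and -0.96 (adjusted p = 0.575).

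Gfra1 lay between 11.4 and 28.5 CPM in SAL (median 20.8), between 13.3 and 33.9 CPM in PNO (median 20.1) and between 12.3 and 36.1 CPM in IUO (median 21.9). The medians of the groups were within a narrow band, and each group had pups at either end. The log2 fold change was 0.19 for PNO versus SAL (SE 0.27, interval -0.37 to 0.76, adjusted p = 0.920), 0.18 for IUO versus SAL (SE 0.27, interval -0.38 to 0.74, adjusted p = 0.989) and -0.02 for IUO versus PNO (SE 0.27, interval -0.58 to 0.54, adjusted p = 0.982). The promoter windows of Gfra1 (minus strand, chr1:267555762-267556061) and Ret (minus strand, chr4:153040507-153040806) are shown as those of the receptor pair, without any TGACG match.
Gfra1 window: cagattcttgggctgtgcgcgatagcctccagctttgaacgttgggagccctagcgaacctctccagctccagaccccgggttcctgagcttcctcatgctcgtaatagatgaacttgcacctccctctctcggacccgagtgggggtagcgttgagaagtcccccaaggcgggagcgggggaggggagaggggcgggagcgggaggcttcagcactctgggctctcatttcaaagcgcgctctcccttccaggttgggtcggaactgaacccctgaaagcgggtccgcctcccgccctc
Ret window: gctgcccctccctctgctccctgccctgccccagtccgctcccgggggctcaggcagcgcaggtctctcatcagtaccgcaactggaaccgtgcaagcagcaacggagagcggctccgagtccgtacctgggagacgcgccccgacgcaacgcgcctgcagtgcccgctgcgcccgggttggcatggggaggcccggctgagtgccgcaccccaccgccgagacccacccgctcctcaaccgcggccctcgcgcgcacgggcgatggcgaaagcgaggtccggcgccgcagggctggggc
Both are rich in G and C, at 63.0% and 74.0% of bases, above 80.2% and 96.0% of all windows.

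**Figure D3:**
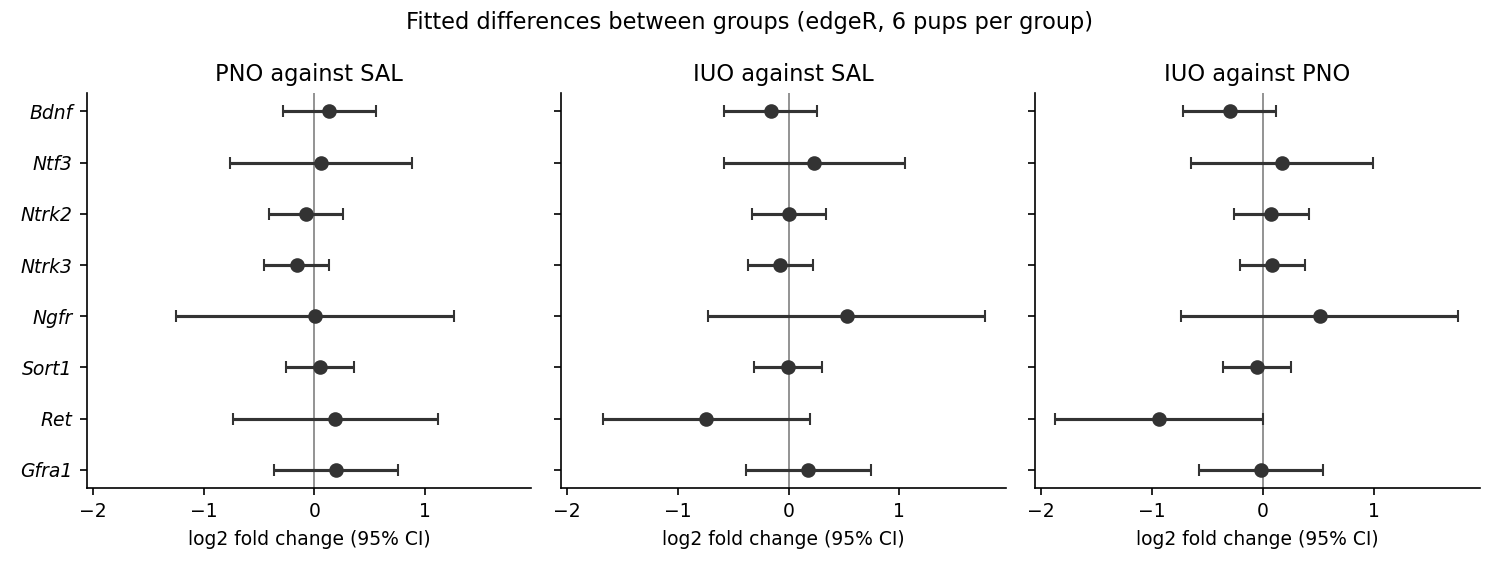
Fitted log2 fold change (horizontal axis, same scale in each panel) of the 8 genes in the 3 comparisons, with 95% intervals from edgeR, 6 pups per group; the grey line marks no difference. All intervals include 0, the narrowest belonging to Ntrk3 and Sort1 and the widest to Ngfr, and the interval of Ret for IUO versus PNO ends at 0.0022.

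The interval widths followed the spread between pups of a group. The SD of log2 CPM within groups was 1.00 for Ngfr, 0.87 for Ret and 0.67 for Ntf3, larger than in 96.9%, 95.6% and 90.7% of all genes tested. Gfra1 (0.50) and Bdnf (0.39) were also above the median gene (0.25), and Ntrk2 (0.29), Sort1 (0.27) and Ntrk3 (0.25) were close to it. The highest pup exceeded the lowest 7.63-fold for Ret, 7.29-fold for Ngfr, 5.49-fold for Ntf3, 3.18-fold for Gfra1, 2.96-fold for Bdnf, 2.09-fold for Ntrk2 and 2.07-fold for Ntrk3. In simulated counts built on these pups for IUO versus SAL, edgeR recovered 51% of genes set to change 1.5-fold and 76% of genes set to change 2-fold at an adjusted p under 0.05. The changed genes were drawn at random, and each gene was simulated on its own, without differences in tissue makeup shared between genes. These shares are averages over such genes and not the chance of detection for the 8 members. A change of 1.5-fold lay within the 95% interval of at least 1 comparison for Bdnf, Ntf3, Ngfr, Ret and Gfra1.

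How the members moved with each other was asked over the 18 pups, in log2 CPM. Of 28 pairs, 4 had an adjusted permutation p under 0.05 (two-sided, 100000 resamples). Ntrk2 and Ntrk3 rose and fell together (r = 0.73, permutation p = 0.00127, adjusted p = 0.0301; Spearman's rho 0.71, p = 0.00136, adjusted p = 0.0356), with r of 0.82 within SAL, 0.77 within PNO and 0.45 within IUO, and 0.56 without SAL6 and PNO1. Ntrk3 also moved with Ret (r = 0.66, permutation p = 0.00215, adjusted p = 0.0301; rho 0.61, p = 0.00818, adjusted p = 0.0764), at 0.41, 0.91 and 0.75 within the groups and 0.51 without PNO3 and PNO2. Ntf3 and Sort1 ran opposite (r = -0.64, permutation p = 0.00421, adjusted p = 0.0393; rho -0.68, p = 0.00254, adjusted p = 0.0356), at -0.76, -0.83 and -0.36 within the groups and -0.47 without SAL4 and PNO4. Bdnf and Ngfr ran opposite as well (r = -0.64, permutation p = 0.00587, adjusted p = 0.0411; rho -0.58, p = 0.0131, adjusted p = 0.0897). That relation rested in part on SAL1 and IUO2, without which r was -0.40, and within groups it was -0.92, -0.38 and -0.47. The 2 pairs of ligand and receptor, Bdnf with Ntrk2 (r = -0.05, permutation p = 0.833) and Ntf3 with Ntrk3 (r = 0.05, permutation p = 0.848), showed no relation, and Ret with Gfra1 had r = 0.50 (permutation p = 0.0339, adjusted p = 0.136; rho 0.57).

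The high Ngfr pups were also the pups with high Lhx8, a transcription factor of the cholinergic neurons of the basal forebrain. Lhx8 was at 14.7 CPM in SAL1, 12.2 in IUO2, 8.87 in PNO1 and 7.18 in IUO6, and in the other 14 pups between 0 and 4.38 CPM, with 0 counts in 4 of them. In the 4 pups with Lhx8 over 5 CPM, Ngfr was at 8.76 to 14.4 CPM, in the other 14 at 1.97 to 6.64 CPM, and in the 4 pups with no Lhx8 count at 2.35 to 3.18 CPM.

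A list of 6 cholinergic genes (Chat, Slc18a3, Slc5a7, Lhx8, Isl1 and Gbx1), chosen after these values were seen, summed to 6.84 to 79.4 CPM in SAL, 7.65 to 68.7 in PNO and 14.1 to 69.7 in IUO, with 5 of the 6 passing the filter. Since the list holds Lhx8 and was picked with the pattern of Ngfr in view, its relations are a description with no test. Its score had r = 0.82 with Ngfr over the 18 pups (rho 0.77), at 0.82, 0.77 and 0.89 within the groups and 0.80 without SAL6 and SAL1. Chat, the enzyme that makes acetylcholine, was highest in PNO1 (8.01 CPM) and SAL1 (6.70 CPM), the 2 pups of highest Ngfr. The same score had r = 0.62 with Gfra1 (rho 0.55; 0.56 without SAL6 and SAL1) and -0.62 with Bdnf (rho -0.60; -0.61 without the same pups). The 4 pups of highest Lhx8 were the 4 of highest Ngfr, so a fit without them is given as a description only. In it Ngfr had a log2 fold change of 0.62 for IUO versus SAL, 0.77 for IUO versus PNO and -0.15 for PNO versus SAL. With the cholinergic score as a covariate these values were 0.019, 0.13 and -0.11, likewise a description only. In the fit reported they were 0.52, 0.51 and 0.0085.

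**Figure D4:**
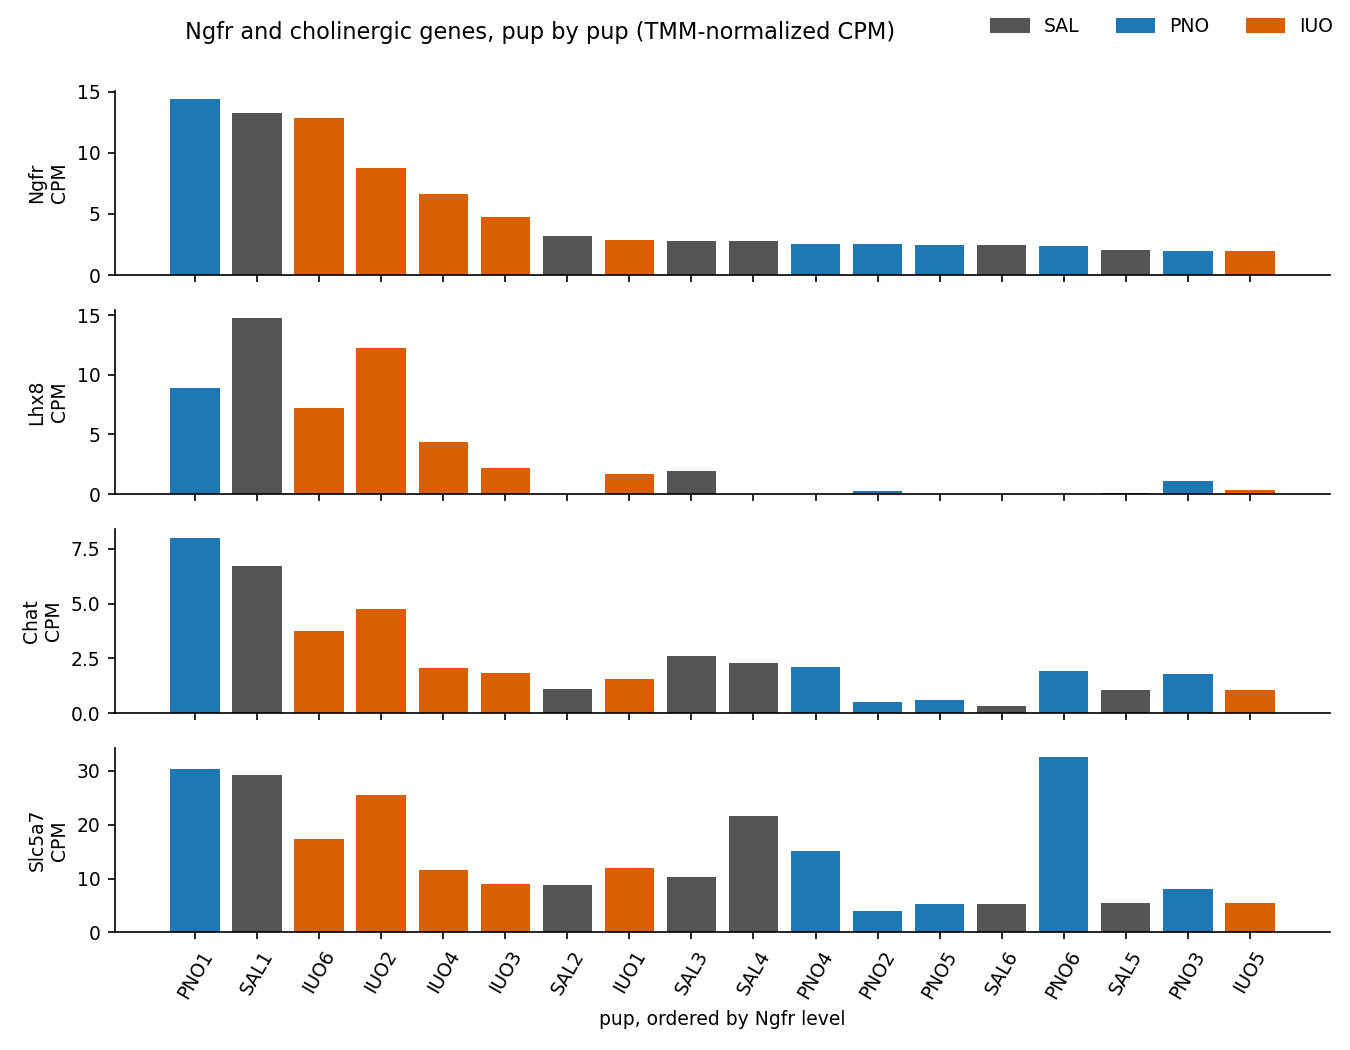
TMM-normalized CPM (vertical axes, from 0) of Ngfr, Lhx8, Chat and Slc5a7 in each of the 18 pups, ordered from left to right by Ngfr; bars are shaded by group. The 4 pups with the most Ngfr, 1 of SAL, 1 of PNO and 2 of IUO, are also the 4 with the most Lhx8 and Chat, while Slc5a7 is also high in PNO6 and SAL4.

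Against the scores of 13 cell type lists, 3 of 104 relations had an adjusted permutation p under 0.05. Gfra1 rose with the oligodendrocyte precursor score (r = 0.81, permutation p = 3e-05, adjusted p = 0.00312; rho 0.78, p = 0.00033, adjusted p = 0.0343), at 0.81, 0.90 and 0.97 within SAL, PNO and IUO and 0.76 without PNO1 and IUO3. It fell with the neuron score (r = -0.73, permutation p = 0.00053, adjusted p = 0.0194; rho -0.74, adjusted p = 0.0343), at -0.96, -0.92 and -0.53 within the groups. Bdnf rose with the interneuron score (r = 0.72, permutation p = 0.00056, adjusted p = 0.0194; rho 0.66, adjusted p = 0.12), at 0.80, 0.73 and 0.59 within the groups and 0.60 without IUO2 and PNO6. The strongest relation of Ntrk2 was with the mural score (r = 0.51, permutation p = 0.0287, adjusted p = 0.209; rho 0.58). Ntrk2 and the astrocyte score had r = 0.41, and 0.13 without PNO1 and SAL5. Ngfr and the striatal score also had r = 0.41, and 0.16 without IUO2 and SAL1. The strongest relation of Ngfr was with the choroid plexus score (r = 0.59, permutation p = 0.00985, adjusted p = 0.126; rho 0.47), at 0.51, 0.83 and 0.87 within the groups and 0.57 without PNO1 and SAL3. None of these relations of Ntrk2 and Ngfr had an adjusted p under 0.05.

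**Figure D5:**
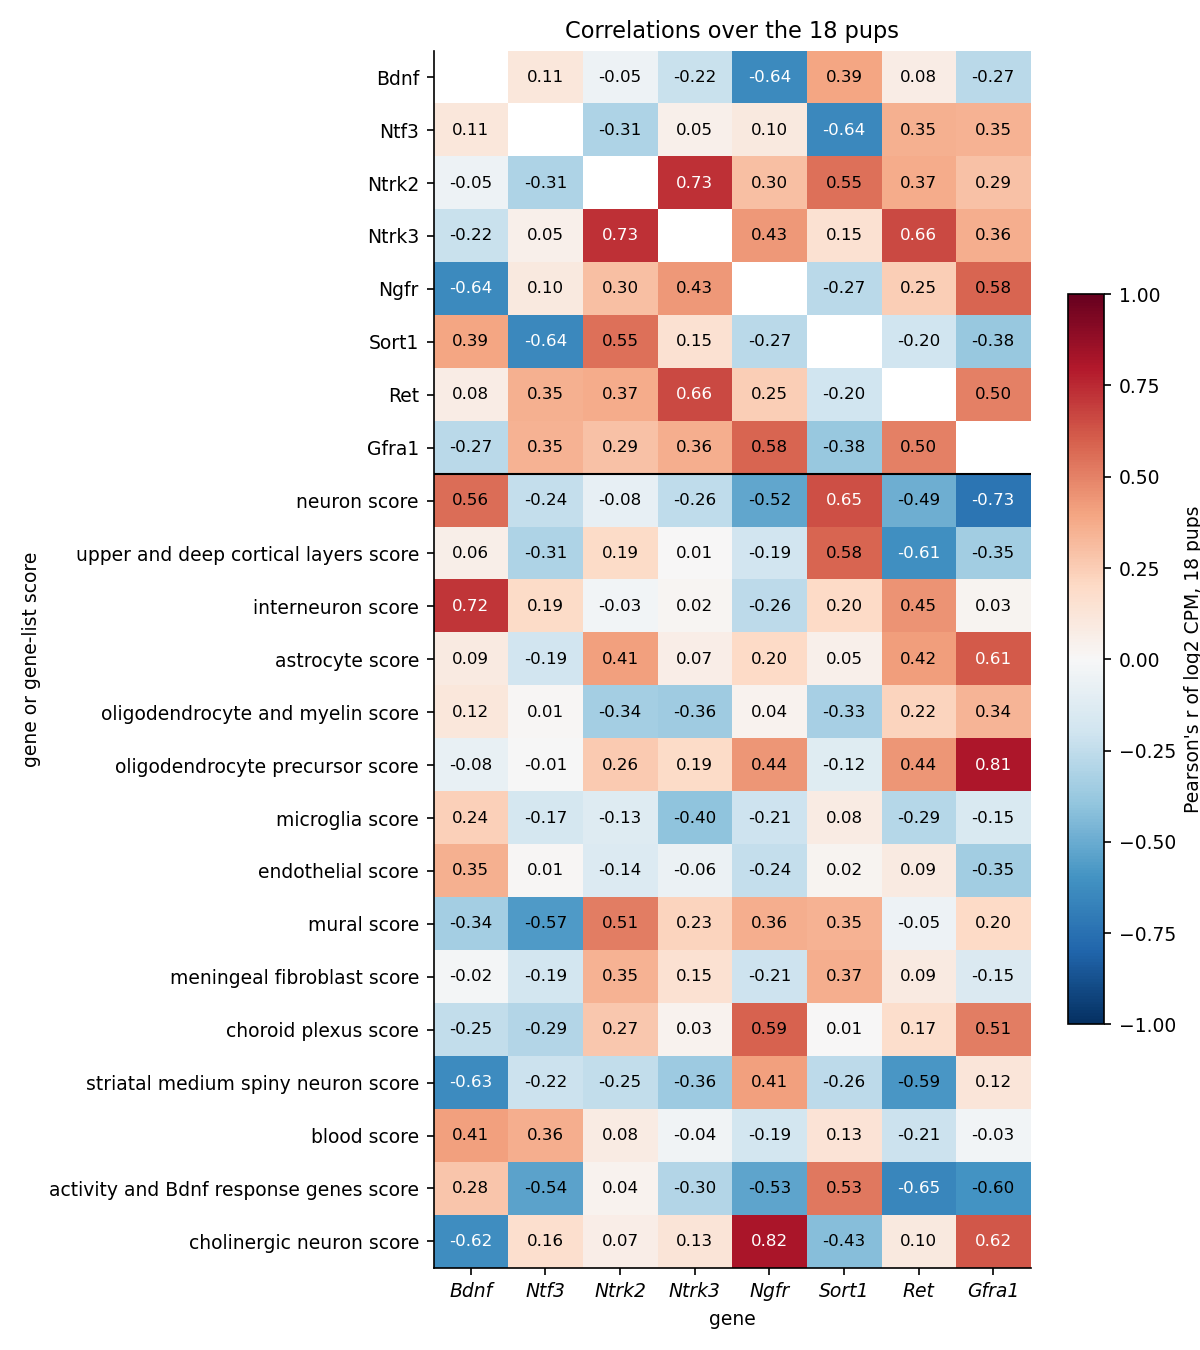
Pearson's r of log2 CPM over the 18 pups between the 8 genes (upper block) and between each gene and the mean scores of cell type and activity lists (lower block); red is positive and blue negative, and the diagonal is left blank. Among the strongest cells are Ngfr with the cholinergic score (0.82), Gfra1 with the oligodendrocyte precursor score (0.81) and Ntrk2 with Ntrk3 (0.73), while Bdnf runs opposite to Ngfr (-0.64).

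The genes whose pattern over the 18 pups was most like each member, among 14368 genes with a mean of at least 1 CPM, are given as a description with no test. Ngfr was followed most closely by Ecel1 (r = 0.90), a metalloprotease-like protein of neurons, and Gpr101 (r = 0.88). Ret was followed by Peg3 (r = 0.91), a paternally expressed imprinted gene, and Slc6a9 (r = 0.89), the glycine transporter GlyT1. Gfra1 went with Zfp521 (r = 0.84) and Nkx2-2 (r = 0.82), the latter a transcription factor of the oligodendrocyte lineage. Ntrk2 went with Timp3 (r = 0.95) and Rab3c (r = 0.94), and Ntrk3 with Fndc3a (r = 0.95) and Nhs (r = 0.92). Sort1 went with Ap2b1 and Aak1 (r = 0.95 each), a subunit of the AP-2 adaptor of clathrin-coated pits and the kinase that acts on it. Bdnf went with Baalc (r = 0.85, rho 0.56) and Ntf3 with Fxyd6 (r = 0.86) and Comtd1 (r = 0.84).

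The rest of the pathway was read from 8 lists, and 0 of their genes had an adjusted p under 0.05 in any comparison by edgeR, in which 0.0%, 0.0% and 0.0637% of all genes were called. Of the other ligands, 4 of 6 were tested. Gdnf (0 to 9 counts per pup) and Ntf4 (0 to 7) did not pass the filter. Pspn had the smallest p of the ligands for IUO versus PNO (log2 fold change -0.57, adjusted p = 0.411) and Artn for PNO versus SAL (-0.40, adjusted p = 0.912). At an unadjusted p under 0.05 there were 0 of the 4 ligands in each comparison, beside 4.5%, 6.88% and 15.3% of all genes.

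Of the other receptors and co-receptors (9 of 10 tested), 0 were at an unadjusted p under 0.05 for PNO versus SAL, 1 for IUO versus SAL and 2 for IUO versus PNO, beside 4.5%, 6.88% and 15.3% of all genes. Gfra2, the co-receptor for neurturin, averaged 38.2 CPM in SAL, 41.5 in PNO and 30.7 in IUO. Its log2 fold change was -0.44 for IUO versus PNO (adjusted p = 0.149) and -0.32 for IUO versus SAL (adjusted p = 0.673), and the groups overlapped. Nradd, a p75-like protein, had 0.58 for IUO versus PNO (adjusted p = 0.235). Lingo1, a partner of p75 in the Nogo receptor complex and the most abundant of this list, had values of 0.05, 0.15 and 0.10 in the 3 comparisons. Of 4 other sorting receptors of the Vps10 family, 3 were matched and tested, with Sorcs2 the most abundant at 109 CPM, and 0 of these were at an unadjusted p under 0.05.

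Of the genes that process or release proneurotrophins (15 of 17 tested), 1, 2 and 3 were at an unadjusted p under 0.05 for PNO versus SAL, IUO versus SAL and IUO versus PNO, beside 4.5%, 6.88% and 15.3% of all genes. Scg2, a granin of dense-core vesicles, averaged 218 CPM in SAL, 244 in PNO and 159 in IUO, a log2 fold change of -0.61 for IUO versus PNO (adjusted p = 0.185). Serpini1 (neuroserpin), an inhibitor of the plasminogen activator Plat, had 0.20 for PNO versus SAL (adjusted p = 0.912), and Plg, at 4 to 31 counts per pup, 1.19 for IUO versus SAL (adjusted p = 0.424) with no overlap of the groups, as in 0.745% of all genes. Cpe, the carboxypeptidase that sorts and trims prohormones and the most abundant gene of this list, had 0.22 for PNO versus SAL (adjusted p = 0.912).

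The adaptors of Trk and Ret (23 of 23 tested) had a positive log2 fold change in 4 of 23 for PNO versus SAL, 13 of 23 for IUO versus SAL and 20 of 23 for IUO versus PNO, beside 50.8%, 48.0% and 49.9% of all genes; each pair of these comparisons shares a group. Their medians were -0.12, 0.02 and 0.09, and 2, 1 and 1 were at an unadjusted p under 0.05, beside 4.5%, 6.88% and 15.3% of all genes. Plcg1, the phospholipase recruited by TrkB, had -0.16 for PNO versus SAL (adjusted p = 0.912), Dok4 0.37 for IUO versus PNO (adjusted p = 0.185) and Shc1 -0.14 for IUO versus SAL (adjusted p = 0.673, with no overlap of the groups, as in 0.745% of all genes). Grb2, the most abundant, had 0.01, 0.02 and 0.0061. Of the p75 effectors (16 of 18 tested), Irak1 had 0.13 for IUO versus PNO (adjusted p = 0.193 by edgeR and 0.04 by DESeq2, which called 2.78% of all genes, with no overlap of these groups, as in 1.66% of all genes) and 0.14 for IUO versus SAL (adjusted p = 0.530), Prdm4 -0.18 for PNO versus SAL (adjusted p = 0.912), and Arhgdia, the most abundant, 0.10 for PNO versus SAL. The list had 0, 3 and 2 genes at an unadjusted p under 0.05, beside 4.5%, 6.88% and 15.3% of all genes.

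In the Ras-MAPK and PI3K branch (29 of 29 tested), Akt1, the kinase downstream of PI3K, had the smallest p of all list genes. It lay between 162 and 174 CPM in SAL, between 149 and 175 CPM in PNO and between 179 and 210 CPM in IUO. The lowest IUO pup was thus above the highest pup of either other group, a separation shown by 1.66% of all genes for IUO versus PNO and 0.745% for IUO versus SAL. The log2 fold change was 0.22 for IUO versus PNO (adjusted p = 0.0923) and 0.19 for IUO versus SAL (adjusted p = 0.424) by edgeR; DESeq2 gave Akt1 an adjusted p of 0.00251 for IUO versus PNO, among 2.78% of all genes called. Mapk7, the kinase ERK5, had -0.22 for PNO versus SAL (adjusted p = 0.912), and Camk2a, the most abundant gene of the list, 0.26 for IUO versus PNO (adjusted p = 0.698). The list had 1, 1 and 4 genes at an unadjusted p under 0.05, beside 4.5%, 6.88% and 15.3% of all genes. Positive values were fitted for 9 of 29 in PNO versus SAL, 21 of 29 in IUO versus SAL and 21 of 29 in IUO versus PNO, beside 50.8%, 48.0% and 49.9% of all genes; each pair of these comparisons shares a group.

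Of the genes that respond to neuronal activity or to BDNF (26 of 26 tested), 5 had a positive log2 fold change for PNO versus SAL, 9 for IUO versus SAL and 16 for IUO versus PNO, beside 50.8%, 48.0% and 49.9% of all genes, and each pair of these comparisons shares a group. At an unadjusted p under 0.05 there were 0, 0 and 2, beside 4.5%, 6.88% and 15.3% of all genes. Their median log2 fold changes were -0.11, -0.06 and 0.04. Fosb had -0.89 for PNO versus SAL (adjusted p = 0.912), Spry4 -0.32 for IUO versus SAL (adjusted p = 0.761), Nr4a2 -1.25 for IUO versus PNO (adjusted p = 0.290) and Vgf, the most abundant, 0.15 for PNO versus SAL. The score of this list did not follow Bdnf beyond the spread (r = 0.28, permutation p = 0.266, adjusted p = 0.377 over 17 relations added after seeing the data). It ran opposite to Ret (r = -0.65, permutation p = 0.00378, adjusted p = 0.0196; rho -0.67, adjusted p = 0.0169; -0.81 without SAL6 and IUO1) and to Gfra1 (r = -0.60, adjusted p = 0.0245 by permutation; rho -0.63), at -0.54, -0.97 and -0.70 within the groups for Ret and -0.84, -0.83 and 0.07 for Gfra1. Ntf3, Ngfr and Sort1 had r of -0.54, -0.53 and 0.53 with it (adjusted p = 0.0469 each by permutation), but the adjusted p of Spearman's rho was 0.0988 for Ntf3, 0.0541 for Ngfr and 0.047 for Sort1. Within SAL, PNO and IUO the values of r were -0.80, -0.39 and -0.0091 for Ntf3, -0.49, -0.68 and -0.59 for Ngfr and 0.99, -0.0099 and 0.36 for Sort1.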

How the data were processed

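Total RNA from the PFC of 18 pups was sequenced after TruSeq V2 library preparation, in 1 pool on a single NextSeq550 flow cell with 75-base single reads. The values used are each pup's expected counts over 32623 genes, deposited without normalization, in which reads that match several genes are divided by estimation. The TPM values the authors deposited are scaled to transcript length and to a common total, and the deposited FPKM values, scaled to length and mapped fragments, were not used. Aligner, quantifier, annotation and genome build are not given in the sources used here. Expected counts were rounded and fitted in edgeR 4.0.16 (R 4.3.3; TMM, filterByExpr by group, glmQLFit and glmQLFTest, two-sided) in 1 model over the 3 groups with 15 residual degrees of freedom before moderation, and Benjamini-Hochberg adjustment covered the 15703 genes tested. CPM is TMM-normalized, with a prior count of 2 for its log2. A list score is the mean over its genes of log2 CPM standardized over the 18 pups. Correlations used permutation tests with 100000 resamples. DESeq2 1.42.0, limma 3.58.1 (voom with quality weights), other filters and size factors, marker covariates, a block and each pup left out were tried. The fit was tested on simulated data. Python 3.11.15, numpy 2.4.6, pandas 2.3.3 and matplotlib 3.10.9 made tables and plots. Pathway genes were named by a rule: the most abundant of a list and the smallest p in each comparison. The members and lists were chosen with earlier results of these data known; the cholinergic list, the relations with it and with the activity score, the transcript lengths and the alternative without 4 pups were chosen after seeing the data. Sorl1, Bex1 and Ngfrap1 and the markers Pecam1, Col1a2 and Hba-a1 matched no symbol. Of 2 rows named Grb2 the one with more counts was used. Promoter windows came from RefSeq (GRCr8). A few genes of these lists, and 1 of the 17 relations added, are not reported here.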

Additional observations from a re-analysis of the deposited data

Results flagged for a closer look

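Over 35 genes and 105 groups of 6 pups, 9 groups held a pup whose gap to its nearest neighbour exceeded Dixon's 95% critical share of the group's range on the log2 CPM scale; chance gives about 1 in 20 groups, and the parts of tissue makeup and of single libraries in these values were not tested. Ngfr was far above the other pups of its group in SAL1 (log2 CPM 3.734, nearest 1.708) and in PNO1 (3.853, nearest 1.397), and these are 2 of the 4 pups with Lhx8 over 5 CPM. Bdnf was far below the others in IUO2 (3.246, nearest 3.898), also among those 4 pups. Ntf3 was high in SAL4 (3.124, nearest 1.537), and Ntrk2 in SAL6 (8.97, nearest 8.325). Among the other genes of the pathway, Gfra2 was low in PNO1 (4.951, nearest 5.372), Sorcs2 high in PNO5 (7.056, nearest 6.652), Vgf low in SAL6 (7.032, nearest 7.705) and Nr4a2 low in PNO3 (4.127, nearest 5.544).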

How the results depend on the processing

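No member was called at an adjusted p under 0.05 under any setting tried, in any comparison. The values that changed sign were log2 fold changes smaller than their standard errors in the fit reported. For PNO against SAL, Ngfr became -0.028 with library totals in place of TMM, -0.00092 with DESeq2, -0.40 with limma-voom, -0.60 with the myelin score as covariate, -0.15 without the 4 pups with Lhx8 over 5 CPM and -0.11 with the cholinergic score. In that comparison the myelin score also turned Ntf3 to -0.076, Ntrk2 to 0.032 and Gfra1 to -0.017, limma-voom turned Sort1 to -0.0021, and leaving out the 4 pups turned Ret to -0.049 and Sort1 to -0.065. For IUO against SAL, Ntrk2 became -0.010 with library totals, -0.0060 without a filter on low counts, -0.0030 with a CPM of at least 1 in 6 pups, -0.0019 with only the 12 pups compared, -0.059 with the myelin score and -0.00047 with the cholinergic score. Bdnf became 0.0040 with the striatal and 0.022 with the cholinergic score, Ntrk3 0.0090 with limma-voom, Gfra1 -0.041 with the cholinergic score, and Sort1 0.070 with limma-voom, 0.046 with the striatal score, 0.059 without the 4 pups and 0.082 with the cholinergic score. For IUO against PNO, Ntf3 became -0.023 with limma-voom and -0.10 without the 4 pups, Gfra1 0.014 with library totals and 0.41 with the myelin score, Ntrk2 -0.091 and Ntrk3 -0.040 with the myelin score, and Sort1 0.072 with limma-voom, 0.12 without the 4 pups and 0.0080 with the cholinergic score. The cause was not tested. The 4 pups and the cholinergic score were chosen with the level of Ngfr in view, so these 2 settings are no check on Ngfr.

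With each pup left out in turn, PNO against SAL ran from -0.0085 to 0.26 for Bdnf, -0.24 to 0.61 for Ntf3, -0.21 to 0.077 for Ntrk2, -0.88 to 0.74 for Ngfr, -0.035 to 0.41 for Ret and -0.024 to 0.12 for Sort1. IUO against SAL ran from -0.046 to 0.15 for Ntrk2, -0.0054 to 0.30 for Gfra1 and -0.095 to 0.071 for Sort1, and IUO against PNO from -0.0015 to 0.18 for Ntrk3, -0.20 to 0.13 for Gfra1 and -0.14 to 0.019 for Sort1. With 1 pup left out, the number of members at an unadjusted p under 0.05 went from 0 to 1 in each IUO comparison. The same held for any difference among the groups. No count is given for the fit without the 4 pups, because they were the 4 pups of highest Ngfr. In the other fits, Ret alone was under that p between IUO and SAL with only the 12 pups compared. Between IUO and PNO, Ret alone was under it with DESeq2, no filter, the stricter filter and the cholinergic score, and Ngfr alone with limma-voom. Of all genes, 6.88%, 15.3% and 10.5% were under that p in the fit reported, in the order IUO against SAL, IUO against PNO and any difference. For IUO against PNO the share was 16.4% with DESeq2 and 34.0% with limma-voom, so 1 of 8 is no excess in those fits. The share of all genes is not given for the other fits, so their counts of 1 are not read as a result. DESeq2 called 1 p75 effector (Irak1) and 1 gene of the Ras-MAPK and PI3K branch (Akt1) for IUO against PNO, beside 2.78% of all genes, where edgeR called 0. Over all genes that comparison had 10 calls with edgeR, 436 with DESeq2 and 2028 with limma-voom, and IUO against SAL 0, 49 and 43.

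The relation of Bdnf with Ngfr was -0.40 without the 2 farthest pups, -0.92 within SAL and -0.38 within PNO; Ntf3 with Sort1 was -0.36 within IUO, Ntrk2 with Ntrk3 0.45 within IUO, and Ntrk3 with Ret 0.41 within SAL and 0.91 within PNO.

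Pups that share a replicate number did not deviate together throughout (correlations from -0.0589 to 0.488 for PNO and SAL, -0.134 to 0.237 for IUO and SAL and -0.301 to 0.444 for IUO and PNO), so the numbers were not taken as pairs. With the number as a replicate block, 0 of 8 members were called in each comparison and 0, 0 and 6 of all genes in place of 0, 0 and 10; Ngfr was -0.055 for PNO against SAL and Sort1 0.00023 for IUO against SAL. Pups correlated best with their own number in 4 of 18 cases. At these depths Gdnf, Ntf4, Gfra3, Mmp3 and Mmp7, with 0 to 15 counts per pup, did not pass the filter.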
